A study of Mus musculus with 14 samples.

Results

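The neuropeptide genes described here are Tac1, Pdyn, Sst, Npy, Nts, Gal, Cck, Grp, Vip and Trh. All 10 were found by symbol among the 19215 genes of the deposited RNA-seq tables, and 2 of the 13189 cassette exons in the deposited splicing tables carried the Entrez number of a member, 1 in Tac1 and 1 in Cck. RNA-seq was performed on poly(A) RNA of whole spinal cord (WSC) from 1 male and 1 female mouse, both 12 weeks old and carrying the wild-type human SOD1 transgene Tg(SOD1)2Gur/J on a B6/SJL background. CLIP, which recovers the RNA fragments crosslinked to a protein, was performed on the neuronal splicing factors NOVA1 and NOVA2. In WSC an antiserum to NOVA was used on wild-type C57BL/6 mice of 3 months, 4 replicates of 1 mouse each. In motoneurons (MNs) antibodies to GFP were used on hemizygous C57BL/6 BAC mice of 3 months that express a GFP-NOVA2 fusion under the regulatory sequence of the Chat gene, 4 replicates of line 6 and 4 of line 17, each replicate a pool of the cords of several animals. Chat marks all cholinergic neurons, so other cholinergic cells of the cord fall under the same promoter, and MN and WSC libraries also differed in antibody, tagged against endogenous protein and depth, which cannot be told apart from the cell type.

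Neuropeptides are cut from larger precursors in dense-core vesicles and act on G protein-coupled receptors at a distance from the release site. In the spinal cord most of these precursors are made by interneurons of the dorsal horn, where substance P (from Tac1) and gastrin-releasing peptide (Grp) take part in nociceptive and itch signalling, dynorphin (Pdyn) and neuropeptide Y (Npy) are made mainly by inhibitory cells and somatostatin (Sst) largely by excitatory ones. The same peptides also reach the cord in axons of sensory ganglia and the brain, whose cell bodies lie outside the tissue, so a transcript level reports on local cells only. NOVA binds RNA at YCAY elements in introns and 3′ UTRs, tetramers in which Y stands for either pyrimidine, so that CCAC is one form, CCAT another, TCAC another and TCAT the last.

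The RNA-seq libraries held 72006019 and 65625173 reads on genes, the WSC CLIP libraries 2213104 to 6095995 reads and the MN CLIP libraries 65961 to 871804. Exonic reads made up 60.9 to 66.2% of the reads in genes in WSC CLIP and 33.4 to 46.4% in MN CLIP. The RNA matched its tissue label, since all 10 Hox genes chosen as spinal cord markers had a mean of 5.88 RPKM or more. Intervals and floors given below cover counting error only, and p-values of the CLIP comparison measure the spread between these libraries.

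All 10 genes were detected in WSC RNA, with means from 2.48 to 128 RPKM. Sst, the precursor of somatostatin, had the highest level, 157 RPKM (reads per kilobase of exon, scaled to 1000000 reads) in the male and 98.4 in the female library, and stood above 97.9% of all genes. Cck, which encodes cholecystokinin, followed at 58.6 and 59.9 RPKM. Npy read 28.7 and 20.8 RPKM, and Nts, the precursor of neurotensin, 20.5 and 20.6. These 4 genes did not overlap with their neighbours in the order, although some margins were narrow. The lower Npy value, 20.8, lay close to the higher Nts value, 20.6, and the lower Nts value, 20.5, close to the higher Tac1 value, 20.4.

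Tac1, which encodes substance P and neurokinin A, read 20.4 and 16.5 RPKM. The next 3 genes formed a middle group whose neighbours overlapped. Grp read 11.8 and 5.92 RPKM, Gal, the galanin precursor, 10.4 and 6.71, and Pdyn 6.85 and 4.46. Vip, which encodes vasoactive intestinal peptide, read 2.46 and 5.24 RPKM, and Trh, the precursor of thyrotropin-releasing hormone, 3.51 and 1.45, so that Pdyn, Vip and Trh each overlapped with the gene beside them.

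The place of Tac1 and Pdyn in this order depended on the gene length used. The authors' exon length was 2847 nt for Tac1 and 1055 nt for Pdyn, against 1034 and 2887 nt in the union of GENCODE exons. With the GENCODE lengths Tac1 moved from 18.4 ± 2.72 to 50.8 ± 7.48 RPKM (mean ± SD, n = 2 libraries), second after Sst, and Pdyn from 5.65 ± 1.68 to 2.07 ± 0.62, last of the 10. The other 8 kept their order apart from Grp and Gal, which overlap. The plot of RNA levels shows both scales.

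**Figure D1:**
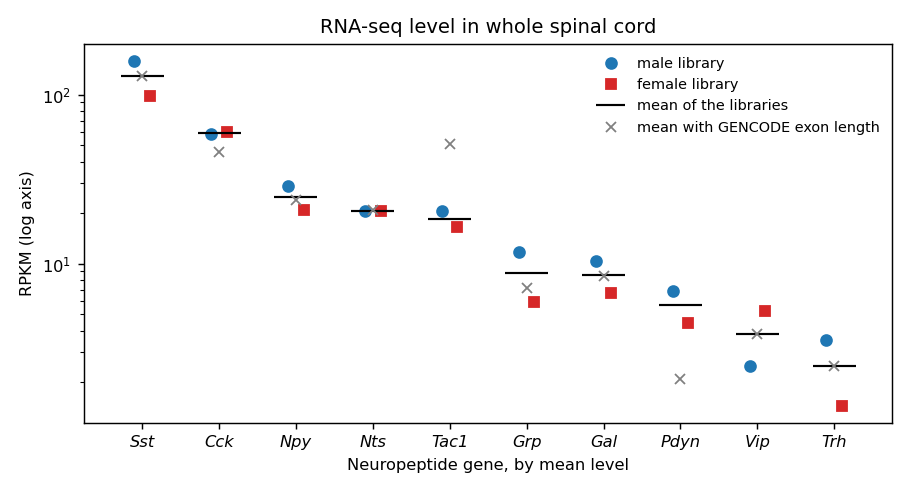
Level of the 10 neuropeptide genes in the male (circle) and the female (square) WSC RNA-seq library in RPKM on a log axis, ordered by their mean (bar), with the mean at the GENCODE exon length as a cross. Sst stands highest in both libraries, and the cross departs most from the bar for Tac1 (50.8 against 18.4 RPKM) and Pdyn (2.07 against 5.65 RPKM).

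The precursors are processed by a shared set of convertases and granins, and all 24 genes of that list had a mean of at least 1 RPKM. Cpe, which trims basic residues from peptide intermediates, was the highest at 564 ± 10.77 RPKM, followed by the vesicle GTPase gene Rab3a at 413 ± 22.6 and the convertase inhibitor gene Pcsk1n at 391 ± 37.9. Of 43 other neuropeptide genes with a row in the tables, 20 had a mean of at least 1 RPKM. Tac2, which encodes neurokinin B, reached 214 ± 21.3 RPKM and the enkephalin precursor gene Penk 122 ± 29.3, so Tac2 exceeded every member and Penk all but Sst, while Vgf read 59.2 ± 7.13 (SD, n = 2 throughout).

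Receptor transcripts lay well below the peptide transcripts for most members. The highest receptor of each was Tacr1 for Tac1 (3.88 ± 0.12 RPKM), Sstr1 for Sst (4.61 ± 0.04), Npy1r for Npy (3.68 ± 0.25), Cckbr for Cck (6.45 ± 0.89) and Vipr2 for Vip (2.67 ± 0.58). Oprk1 for Pdyn (0.997 ± 0.017), Galr1 for Gal (0.984 ± 0.386) and Grpr for Grp (0.850 ± 0.068) stayed under 1 RPKM. The order was the other way round for 2 members. The neurotensin receptor gene Ntsr2 read 90.0 ± 4.72 RPKM and the neurotensin sorting receptor gene Sort1 76.2 ± 1.72, both above Nts, and Trhr at 6.46 ± 0.18 stood above Trh.

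The male and female libraries were single animals, so their difference was described without a test. On the scale log2(female RPKM + 0.1) − log2(male RPKM + 0.1), 7 of 10 members were below 0 and the median was −0.54, whereas 51.3% of the 11940 genes with a mean of at least 1 RPKM were below 0 and their median was −0.01. The 95% counting interval, taken on the ratio of reads without the pseudocount, lay wholly below 0 for the same 7 members and above 0 for 1, against 35.2% and 32.1% of those 11940 genes. Trh at −1.22 (−1.58 to −0.99) and Vip at 1.06 (0.87 to 1.30) were past 2-fold. Of the genes of at least 1 RPKM, 0.821% were past 2-fold, 0.352% higher and 0.469% lower in the female library, and of all 19215 genes 2.5%, 1.04% higher and 1.46% lower. With a pseudocount of 1 in place of 0.1 both fell short of 2-fold, at −0.88 for Trh and 0.85 for Vip, where 0.271% of all genes were past it, 0.146% higher and 0.125% lower. Grp lay just under 2-fold, at −0.98 (−1.18 to −0.81).

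Sst at −0.68, Gal at −0.63, Pdyn at −0.61, Npy at −0.46 and Tac1 at −0.30 made up the rest of the lower members. The intervals of Cck, at 0.03, and Nts, at 0.00, spanned 0. Vip was the only member higher in the female library by more than counting error. In bulk tissue, fewer cells of a type and less RNA per cell cannot be told apart.

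Other lists were counted in the same way, by intervals that left out 0. Of the 8 motoneuron markers of at least 1 RPKM, 6 were higher in the female library and 0 lower, with a median of 0.20, and Slc5a7, the choline transporter gene, read 27.99 and 46.9 RPKM. Of the 10 Hox genes, 6 were lower in the female library and 1 was higher, and the lumbosacral gene Hoxd10 read 8.61 and 4.17 RPKM. Of the 14 interneuron markers, 9 were lower and 2 higher, with a median of −0.20. Of the 24 peptide processing and vesicle genes 14 were lower and 6 higher, of the 13 receptors 4 and 1, and of the 10 glial markers 2 and 6. Of the 20 other neuropeptide genes 12 were lower and 6 higher. Among these, Uts2, known from motoneurons, read 23.0 and 92.4 RPKM, and Calca, made by motoneurons and sensory neurons, 26.7 and 55.5. The dorsal horn gene Npff read 11.3 and 5.30 (these 3 and Hoxd10 were chosen after their values were seen). The defining sensory ganglion genes Scn10a, Scn11a, Trpv1, Mrgprd and Mrgpra3 were at most at 0.0235 RPKM in either library. The part of the stretch of cord or of the cell mixture in the members' differences was not tested.

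**Figure D2:**
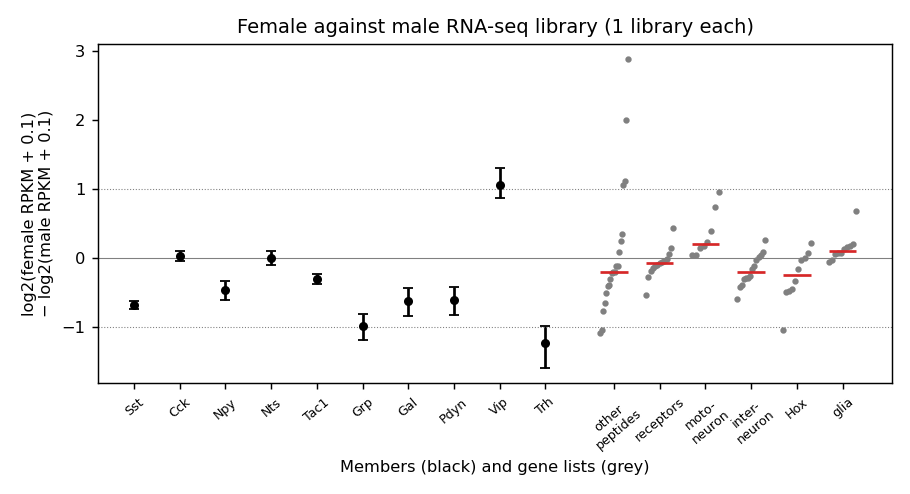
Difference between the female and the male library on the log2(RPKM + 0.1) scale for each member (black, with the 95% counting interval) and for the genes of 6 lists with a mean of at least 1 RPKM (grey, red bar at the median). Dotted lines mark 2-fold. 7 members lie below 0 with a median of −0.54, Vip lies at 1.06, and the motoneuron markers have a median of 0.20.

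The cassette exon of Tac1 was included in part in both libraries. It is exon 4 of the 7 exons, 45 nt at chr6:7507216-7507260 (mm9, plus strand), inside the coding sequence. Transcripts that hold it are the α and β forms of the precursor and those that skip it the γ and δ forms, all of which keep the substance P exon. The sequences below are its splice sites, shown because they bound the only member exon with mixed use, with exon bases in capitals and intron bases in lower case.
Tac1 exon 4 acceptor, chr6:7507196-7507225: gtcaattcatctcttgtcagATTCCTCAGT
Tac1 exon 4 donor, chr6:7507251-7507280: GCTCTTTATGgtaaacatccctataaatct

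In the male library 49 reads spanned the upstream inclusion junction, 241 the downstream inclusion junction and 232 the skipping junction, which gave an inclusion rate of 38.5% (95% Wilson interval 33.7 to 43.5). In the female library the same junctions held 42, 162 and 149 reads, which gave 40.6% (34.7 to 46.8). Each library lay within the interval of the other, and the average over both was 39.5 ± 1.54% (SD, n = 2). Fisher's exact test on the authors' inclusion and skipping counts gave p = 0.532 and an adjusted p of 1, where 4.26% of the 9396 exons with at least 10 junction reads in each library passed 0.1. The test compares 2 libraries and not the sexes.

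The inclusion junctions of this exon were uneven, with 4.92 times as many downstream as upstream reads in the male and 3.86 times as many in the female library. The rate was therefore 19.7 ± 3.22% from the upstream junction alone and 51.5 ± 0.81% from the downstream one. An imbalance at least as large was found in 13.7% of 6621 covered exons. Exon 5 of Tac1, just downstream, is 24 nt long.

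The Cck exon, 163 nt at chr9:121402487-121402649 (mm9, minus strand), was not used at this depth. All 254 junction reads of the male and all 194 of the female library skipped it, which allows an inclusion of up to 1.18 and 1.55%. Its splice sites are shown for comparison with the used exon, written in the same way.
Cck exon acceptor, chr9:121402640-121402669: atctctgactttattcgcagTGGCATGGAT
Cck exon donor, chr9:121402467-121402496: GGCTTGACTGgtgagggaaaactggacctc

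NOVA reads on the members lay almost wholly in exons, and for most members in the 3′ UTR. Over the 4 WSC libraries 1345 sense reads fell in member genes, of which 91.0 ± 0.90% per library were in 3′ UTRs, 7.58 ± 0.59% in coding sequence and 1.41 ± 0.50% in introns (mean ± SD, n = 4). The exonic share was 98.6 ± 0.50%, against 60.9 to 66.2% for all genes in the same libraries. The precursor genes are short, with spans of 1264 nt for Sst to 13759 nt for Grp, and neither share was compared with genes of like length or with a 3′ UTR share over all genes.

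Tac1 had 446 of its 450 WSC reads in the 3′ UTR, Npy 323 of 343, Nts 207 of 213, Vip 80 of 82, Pdyn 33 of 35 and Grp 29 of 33. Sst was the exception, with 73 of 178 reads in coding sequence and 100 in the 3′ UTR. Cck had 10 reads, Gal 1 and Trh none, which allows Trh up to 0.213 RPM. No WSC or MN read had its midpoint in exon 4 of Tac1 or in the introns on either side of it.

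The reads of Npy and Nts piled up at narrow sites, with 45 and 55 positions covered at 0.5 of the peak or more, while those of Tac1 (73 positions) and Sst (82) formed a pair of peaks and those of Vip (284) and Pdyn (158), with peaks of 14 and 8 reads, were spread out. The 30-nt windows centred on the base with the most WSC reads are shown 5′ to 3′ for the members with at least 20 exonic reads other than Grp, because NOVA reads were densest there. The Grp window is not printed but is counted below. Capitals mark the YCAY tetramers, which can overlap, on the transcribed strand (mm9). A second summit, at least 60 nt away, is given for Tac1, Sst, Vip and Pdyn, where it came closest to the first in height.
Tac1, chr6:7512449-7512478, plus strand: tctatTCATctTCATctgtgtcagtgagca
Tac1 second summit, chr6:7512900-7512929, plus strand: tgtaattctctggtcttcagTCATtgtatg
Npy, chr6:49779373-49779402, plus strand: atcTCATcTCATcccctgaaaccagtctgc
Nts, chr10:101944523-101944552, minus strand: ctagtTCATctctcggtacaaaggagttac
Sst, chr16:23889714-23889743, minus strand: ggcccccgatgctcaacttgaccctgcatt
Sst second summit, chr16:23889812-23889841, minus strand: ttctggaagacatTCACatcctgttagctt
Vip, chr10:4699024-4699053, minus strand: agTCACTCACaatgatattttgtcttattg
Vip second summit, chr10:4699199-4699228, minus strand: cacggatTCATctctcCCATtaggctttgc
Pdyn, chr2:129513370-129513399, minus strand: tccaaactTCACtgaacgtgtgctcctctc
Pdyn second summit, chr2:129513629-129513658, minus strand: tgttccgctgcttgctCCATtcagcactcc

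The Tac1 summit lay 35 nt past the end of the coding sequence in exon 7 and held 182 of the WSC reads over 1 base, and the second lay 486 nt past it with 112. In Npy the summit, 65 nt past the coding end in exon 4, was covered by 269 of 340 exonic reads. Both windows hold TCAT repeated with a short spacing. The Nts summit, 431 nt into the 3′ UTR, was covered by 122 of 211 exonic reads. The 2 Sst peaks had 88 reads in the 3′ UTR and 70 in the coding sequence, and only the lower one held a tetramer. Both Vip summits were covered by 14 reads and both Pdyn summits by 8.

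Of the 7 members with a summit, 6 held at least 1 of the tetramers in the window, or 85.7%, and 4 held 2 or more. Among 9980 genes with at least 20 exonic WSC reads, 87.4% of the summit windows held one and 44.2% held 2 or more, against 36.6% of 3530784 windows of the same length tiled over their exons. The members' share was close to that of all genes with such a summit.

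**Figure D3:**
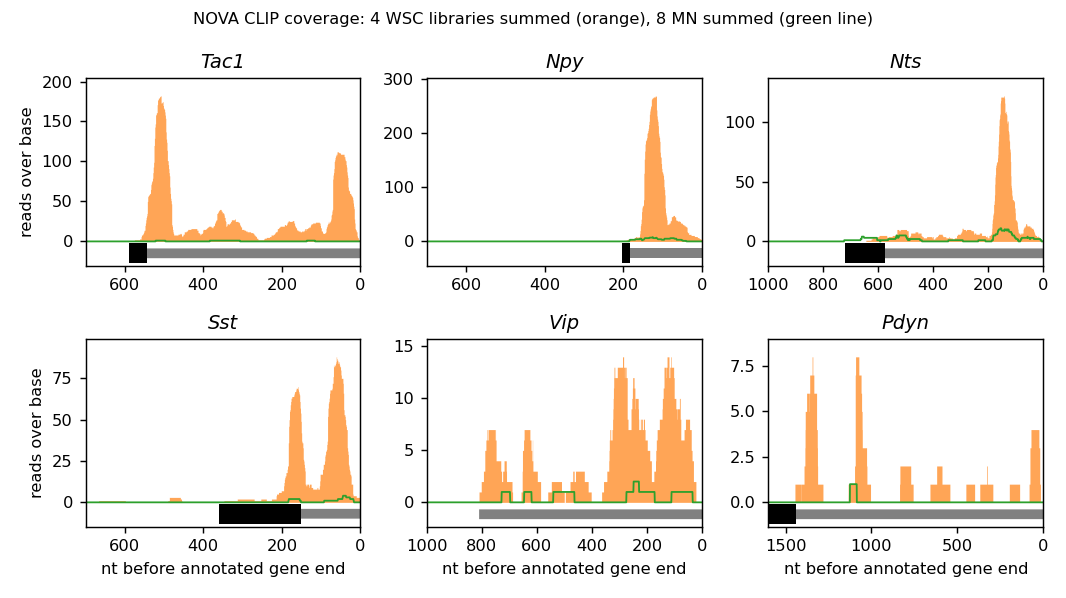
NOVA CLIP reads over each base of the last part of 6 member genes, by distance to the annotated gene end, for the 4 WSC libraries summed (orange) and the 8 MN libraries summed (green line). Black bars mark coding sequence and grey bars other exon sequence. Tac1 shows peaks of 182 and 112 reads at the ends of its 3′ UTR, Npy 1 peak of 269 and Nts 1 peak of 122, and Sst peaks of 88 and 70 on both sides of the coding end.

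The number of NOVA reads for a given amount of RNA differed widely between the members. The share of exonic WSC NOVA reads was divided by the share of RNA-seq reads for each gene of at least 1 RPKM, using RNA from other animals of another strain. NOVA reads were counted on GENCODE exons and RNA reads on the authors' exons. These lengths differ for Pdyn (2887 against 1055 nt) and Tac1 (1034 against 2847 nt), and the effect on their ratios was not tested. Npy had the highest ratio, 2.83 ± 0.03 (SD over 4 CLIP libraries), above 92.9% of 10887 genes, and Vip the next, 1.57 ± 0.17. Nts at 0.988 ± 0.043, Tac1 at 0.925 ± 0.138 and Pdyn at 0.658 ± 0.093 also exceeded the median of all genes, 0.401. Grp at 0.442 ± 0.099 lay near it.

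Sst, the most abundant member, had a ratio of 0.252 ± 0.046. Cck had 9 exonic reads and a ratio of 0.0274 ± 0.0153, above 8.35% of genes. Among the members only Sst, and at the GENCODE lengths also Tac1, had more RNA per length than Cck. The Cck ratios per library were 0.0422, 0.0081, 0.0367 and 0.0226, all below the lowest value of Sst, 0.207. Gal had 1 read, in WSC replicate 1, and Trh none. The median of the 10 members, 0.550, lay between the quartiles of all genes, 0.118 and 1.09. The medians were 0.112 for the 20 other neuropeptide genes and 1.496 for the 13 receptor genes of at least 1 RPKM.

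**Figure D4:**
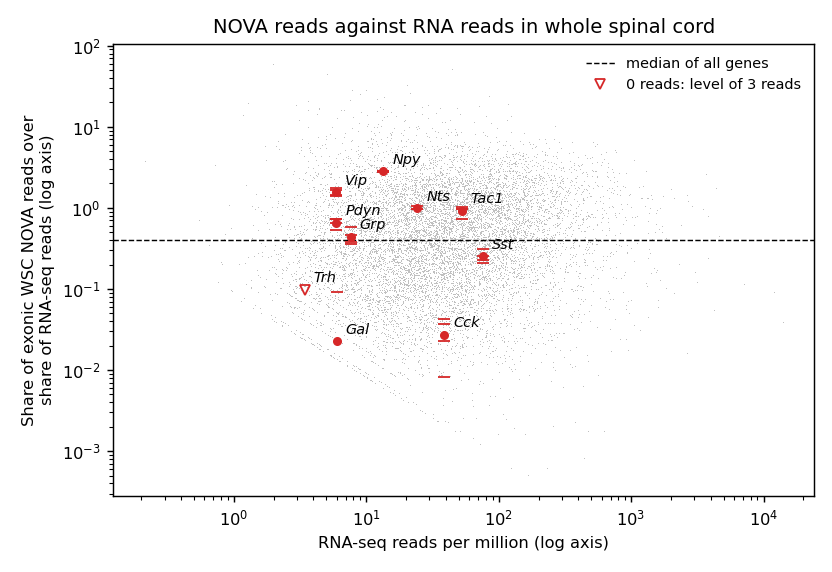
Share of exonic WSC NOVA CLIP reads over the share of RNA-seq reads (log axis) against RNA-seq RPM (log axis), for 10887 genes (grey) and the members (red dots, the mean over the 4 CLIP libraries; short bars, the libraries above 0). Trh has no read and is drawn at the level of 3 reads. Npy lies at 2.83, Cck at 0.0274 and the dashed median at 0.401.

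The comparison of MN with WSC CLIP asks which transcripts NOVA contacts in cholinergic neurons. Few member reads were recovered from MNs. No member passed the filter on low counts of the planned edgeR quasi-likelihood fit, in which 57.2% of 4536 genes passed an adjusted p of 0.01 (28.1% higher and 29.1% lower in MNs), so the values below come from the same fit with every gene that had a read kept. There 23.0% of 16430 genes passed, 15.9% lower and 7.16% higher in MNs, and 9 of the 10 members were tested, all but Trh. Tac1, Sst and Npy passed as lower in MNs and no member as higher.

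Because the MN libraries held fewer exonic reads and nearly all member reads are exonic, the fit was repeated on exonic reads with every gene kept. There 11.7% of 14999 genes passed, 7.85% lower and 3.85% higher in MNs. Tac1 passed again as lower, Nts as higher, and Sst and Npy did not pass. The fate of each call is given with its gene.

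Tac1 was lower in MNs on both scales. The 4 WSC libraries had 34.5, 34.0, 31.1 and 24.1 RPM (reads scaled to 1000000 reads in genes). The 8 MN libraries had a lowest value of 0, a median of 0 and a highest of 15.2, from 1 read in each of 2 shallow libraries and 2 reads in the deepest. The groups did not overlap, which held in this direction for 11.1% of all genes. In all, 4 MN reads were found where the WSC share would give 49.6. The log2 ratio of MN over WSC was −3.69 (SE 0.48, adjusted p = 7.0e-13, edgeR), and −3.32 (SE 0.59, adjusted p = 5.1e-07) on exonic reads. In line 6, 1 read stood against 20.3 at the WSC share, and in line 17, 3 against 29.3. Counted on exonic reads, 3 MN reads stood against 29.9, with 0 against 12.4 in line 6 and 3 against 17.5 in line 17.

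Nts, by contrast, was recovered from 7 of 8 MN libraries. The WSC libraries had 16.0, 14.9, 14.4 and 16.2 RPM and the MN libraries a lowest value of 0, a median of 21.5 and a highest of 32.5. The groups overlapped. The log2 ratio was 0.51 (SE 0.30, adjusted p = 0.193, edgeR) on all reads and 1.31 (SE 0.31, adjusted p = 0.00037) on exonic reads. Without line 17 replicate 4, which gave 19 of the 37 MN reads, the exonic value was 1.00 and the call was lost, at an adjusted p of 0.0898, and with the replicate block it was 1.15, at 0.0219. The pooled exonic ratio was 1.89 (exact 95% counting interval 0.93 to 3.44) in line 6 and 3.16 (2.02 to 4.77) in line 17.

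Npy was divided within the MN libraries. The WSC libraries lay between 23.5 and 25.03 RPM, and the MN libraries had a lowest value of 0, a median of 4.34 and a highest of 160, from 8 of the 15 MN reads in line 17 replicate 1, the shallowest library. The log2 ratio was −1.43 (SE 0.36, adjusted p = 0.00049, edgeR), and −2.47 without that library. On exonic reads it was −0.63 (SE 0.39, adjusted p = 0.290), and −1.68 (adjusted p = 0.0047) without that library. The pooled ratio on all reads was 0.130 (0.016 to 0.471) in line 6 and 0.582 (0.307 to 1.01) in line 17. On exonic reads it was 0.213 (0.026 to 0.775) in line 6 and 0.981 (0.517 to 1.70) in line 17, where the interval includes no difference.

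Sst had 10.3 to 14.8 RPM in WSC, and 0 at the lowest, 0 at the median and 40.01 at the highest in MNs, with all 6 MN reads in line 17. The log2 ratio was −1.81 (SE 0.51, adjusted p = 0.0020, edgeR) on all reads and −0.99 (SE 0.55, adjusted p = 0.215) on exonic reads. In line 6, 0 reads stood against 8.01 at the WSC share, a pooled ratio of 0 (0 to 0.465), and 0 (0 to 0.780) on exonic reads. In line 17 the pooled ratio was 0.52 (0.187 to 1.15) on all reads and 0.890 (0.322 to 1.98) on exonic reads, both intervals that include no difference. Leaving out line 6 replicate 3 or line 17 replicate 4 ended the calls of both Sst and Npy, at adjusted p of 0.031 and 0.014 for Sst and 0.028 and 0.094 for Npy.

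The other members could not be placed at this depth. Grp had 1.96 to 2.80 RPM in WSC and no read in any MN library, where 3.63 were due at the WSC share. Its pooled ratio was 0 (0 to 1.07), an interval that includes no difference, and it did not pass (adjusted p = 0.0231, edgeR). Pdyn had 35 WSC reads and 1 MN read, a pooled ratio of 0.259 (0.006 to 1.54). Vip, with 6 MN reads, had a ratio of 0.664 (0.237 to 1.51), and 1.10 (0.392 to 2.50) on exonic reads. Cck with 2 MN reads and Gal with 1 had ratios of 1.82 (0.193 to 8.52) and 9.08 (0.116 to 713), and Trh had no read in either group.

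**Figure D5:**
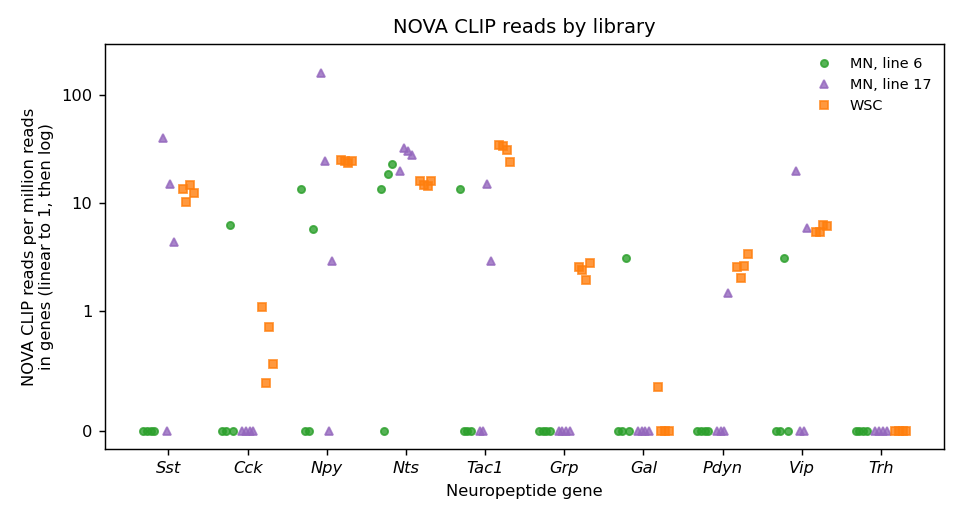
NOVA CLIP reads of each member in RPM in the 4 MN libraries of line 6 (circles), the 4 of line 17 (triangles) and the 4 WSC libraries (squares), on an axis that is linear up to 1 and logarithmic above. For Tac1 every MN library lies below the lowest WSC value, 24.1, for Nts the MN median is 21.5 against WSC values of 14.4 to 16.2, and for Npy 1 line 17 library stands at 160.

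Lines 6 and 17 were compared in the same model. Of 4536 genes 0 passed an adjusted p of 0.01 in the edgeR fit, where 215 had an unadjusted p under 0.05, and 1 passed in DESeq2, and with every gene kept 1 of 16430 passed (0.00609%) and 0 of the 9 members. As a check of the label, the motoneuron marker Chat had a log2 ratio of MN over WSC of 3.08 (SE 0.13). The fusion was expressed under the regulatory sequence of Chat, so Chat itself is not an independent marker. The glycine transporter gene Slc6a5, an inhibitory interneuron marker, had a log2 ratio of −4.27 (SE 0.16). Chodl was at 2.48 (SE 0.13) and Slc32a1, the vesicular transporter gene for glycine and GABA, at −4.20 (SE 0.30). Of the markers kept by the filter on low counts, 3 of 3 motoneuron markers passed as higher and 7 of 8 interneuron markers as lower. Among the 4536 genes kept there, 28.1% passed as higher and 29.1% as lower. With every gene kept, 4 of 8 motoneuron markers passed as higher and 11 of 14 interneuron markers as lower. Those shares over all 16430 genes were 7.16% and 15.9%.

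The receptors gave more MN reads than the peptides, and 5 of 25 with a gene model passed the filter on low counts. All 5 then passed the test, 3 as higher and 2 as lower in MNs, where 57.2% of the 4536 genes kept passed. The filter can keep a gene for its reads in 1 group alone, which favours genes that differ. Vipr2 had means of 7.08 RPM in WSC and 50.4 in MNs, and Cckbr of 77.7 and 6.50. Vipr2, a receptor for vasoactive intestinal peptide, had a log2 ratio of 2.93 (SE 0.29, adjusted p = 1.5e-09, edgeR) and Trhr, the receptor for thyrotropin-releasing hormone, of 1.49 (SE 0.18, adjusted p = 4.2e-08). Cckbr at −4.01 (SE 0.37) and Sort1 at −1.59 (SE 0.13) were lower. With every gene kept, 22 receptors were tested, 3 higher and 6 lower in MNs, against 7.16% higher and 15.9% lower among all 16430 genes. Sstr1, the highest somatostatin receptor in RNA, had 65 WSC reads and 0 MN reads. Vipr2, Trhr, Cckbr and Sort1 kept their direction and passed on exonic reads with every gene kept, at 1.91, 1.88, −5.20 and −1.52. The substance P receptor gene Tacr1 was at 0.84 (SE 0.17) on all reads with the filter. With every gene kept it was at 0.63 (SE 0.19, adjusted p = 0.0038, edgeR) on all reads and at 0.05 (adjusted p = 0.915) on exonic reads. The peptides of Vipr2 and Trhr themselves, Vip and Trh, had 6 and 0 MN reads.

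Among the other neuropeptide genes Penk alone passed the filter and was lower in MNs, at −2.03 (SE 0.30, adjusted p = 1.4e-06). In the fit used for the members, with every gene kept, 28 were tested, of which 3 were higher and 2 lower in MNs. Among all genes in that fit 7.16% were higher and 15.9% lower. Calca was higher at 2.12 (SE 0.33, adjusted p = 3.0e-09) and Uts2d, a paralogue of the urotensin gene, at 1.66 (SE 0.31, adjusted p = 7.4e-07), and both passed on exonic reads, at 2.83 and 2.36. Gnrh1, with 6 MN and 4 WSC reads, was at 3.26 (SE 0.88, adjusted p = 0.0012) and Nppc at −3.10 (SE 0.69, adjusted p = 5.4e-05), and neither passed on exonic reads (adjusted p = 0.106 and 0.0145). Of the peptide processing and vesicle genes 14 of 24 passed the filter on low counts, of which 1 was higher and 4 were lower. Among all 4536 genes that passed this filter 28.1% were higher and 29.1% lower. The list was led by Ptprn2 at 0.41 (SE 0.10) and Rab3a at −1.46 (SE 0.19) and Pcsk2 at −0.89 (SE 0.11). The glial genes Gfap at −0.75 (SE 0.18) and Aqp4 at −0.71 (SE 0.15) were also lower in MNs, 2 of 4 tested, and 3 of 3 Hox genes tested were lower, Hoxb9 at −3.51 (SE 0.38) and Hoxc10 at −1.42 (SE 0.27) among them. On exonic reads with every gene kept, Penk, Rab3a, Pcsk2 and Hoxb9 passed again, while Ptprn2 (adjusted p = 0.332), Gfap (0.363), Aqp4 (0.437) and Hoxc10 (0.0158) did not. Since antibody, fusion protein and cell type cannot be told apart, these ratios compare the libraries and not the cells alone.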

How the data were processed

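The authors trimmed RNA-seq reads to 74 nt, aligned them to mm9 with OLego and deposited read counts and RPKM per gene, and junction counts per cassette exon. CLIP reads were stripped of the 3′ linker, aligned to mm9 with Novoalign, cleared of reads beside GTGTC-like pentamers and deposited as unique reads with a score column that was not used. The score in the deposited BED files was set aside, and each line was taken as 1 read. Here CLIP reads were counted by midpoint and strand on 22380 protein-coding GENCODE gene spans, those in more than 1 gene left out. MN and WSC were compared with the edgeR 4.0.16 quasi-likelihood test (TMM, filterByExpr, Benjamini-Hochberg, adjusted p 0.01), and line 6 with line 17 in a fit of 3 groups. As filterByExpr kept no member, all genes with a read were kept for the members. DESeq2 and edgeR's exact test were alternatives, as were each line alone, exonic reads and each library left out. The edgeR and exon scripts were tested on simulated data. RPKM was compared as log2(RPKM + 0.1) with no test, having 1 library of each sex. Inclusion rates are the mean of both inclusion junctions over that mean plus skipping, with a minimum of 10 junction reads. Replicates were separate mice or pools.

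The members were named always. From each gene list the 3 with the highest mean RPKM, the 2 with the largest positive and negative log2 ratio among those called in CLIP, and the highest receptor of each member were named. Members and lists were chosen with earlier results of these data known. The sensory ganglion list (P2rx3 the highest after Prph and Calca, at 0.844 RPKM), the forebrain list (Neurod6 2.56 RPKM, Tbr1 0.029) and the glial list (Mbp 2132 and Gfap 500.4 RPKM) checked the tissue. The highest motoneuron markers were Prph (50.4 RPKM), Slc5a7 (37.4) and Slc18a3 (26.1), the highest interneuron markers Calb2 (141), Pvalb (134) and Slc6a5 (89.0), and the highest Hox genes Hoxb8 (47.1), Hoxc8 (45.9) and Hoxb9 (24.7). Some genes of these lists are not reported here. 2 genes of the other neuropeptide list, Nps and Ucn2, had no row. Sequences were read from the mm9 genome.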

Additional observations from a re-analysis of the deposited data

Results flagged for a closer look

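In groups of 4 CLIP libraries, the highest library of 7 of 21 member groups with any read met Dixon's criterion. For values on a continuous scale chance gives about 1 in 20, but where 1 library holds all the reads of a gene the ratio is 1.0 whatever the count, as in 6 of the 7, so that rate does not apply to them. In 5 of them the library held 1 read of the gene and the other 3 none. These were Tac1 in line 6 replicate 1 (13.6 RPM), Pdyn in line 17 replicate 4 (1.47), Gal in line 6 replicate 3 (3.13) and in WSC replicate 1 (0.363), and Vip in line 6 replicate 3 (3.13). Cck in line 6 replicate 3 had 2 reads (6.26 RPM), both intronic, against none in the other 3. Npy in line 17 replicate 1 had 8 reads, 160 RPM, and the next highest library of that line 24.4.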

How the results depend on the processing

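Tac1 stayed lower in MNs and past the threshold under all 39 alternatives that could test it, from −8.84 (line 6 on exonic reads) to −2.54 (line 17 on exonic reads). The count of members called was 0 with the filter on low counts and 3 with every gene kept, 3 with at least 10 WSC reads, 3 with MN libraries of at least 200000 reads, 3 with line 6 only and 1 with line 17 only. With every gene kept, the exact test and line 17 only each called 1, and leaving out 1 library gave 1 to 3, the 1 without line 6 replicate 3 or line 17 replicate 4. On exonic reads with every gene kept, 2 were called, DESeq2, the exact test, line 6 only and the replicate block each called 1, and leaving out 1 library gave 1 to 3. Deviations of libraries with the same replicate number correlated at 0.055 to 0.198 between line 6 and line 17, with 3 of 4 over 0.1, and at −0.066 to 0.033 between either line and WSC, so the numbers were not taken to pair MN with WSC. The replicate block called 3 members with every gene kept, and Nts on exonic reads was the only member call it ended. Sst and Npy each passed in 16 of 39 alternatives and Nts in 13 of 39. Between the lines, members could be tested only with every gene kept, where 0 of 9 were called. The other settings kept no member after the filter, so they could not call one. The count of members past 2-fold in RNA was 0 with a pseudocount of 1. The Tac1 inclusion rate was 56.7% with the authors' counts and with inclusion not halved, 19.7% by the upstream and 51.5% by the downstream junction. The median level of the members was 13.6 RPKM, 11.6 and 16.1 without the male and without the female library, and 14.5 at the GENCODE lengths. That length was an alternative chosen after seeing the data, as were the single junctions, the exonic fit with every gene kept and the repeats of both fits with every gene kept. The exonic share in WSC stayed between 98.4 and 98.7%. MN depth limits the members, since 3 reads over the 8 MN libraries are 1.93 RPM. The causes of these shifts were not tested.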
